A study of Mus musculus with 24 samples.

Results

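The Schlafen genes encode proteins that share an N-terminal Schlafen domain and that come in short, intermediate and long forms, the long ones carrying a helicase-like C-terminal region. The family is known from lymphocytes, where its short members are linked to quiescence, and from macrophages, where several members belong to the genes that respond to type I interferon. Engagement of Toll-like receptor 4 (TLR4) by lipopolysaccharide triggers an early branch of signaling that activates NF-kappaB and a TRIF-dependent branch that leads to secretion of interferon beta, which then acts back on the cell through its receptor and the transcription factors that the receptor engages. The members described here were Slfn1 and Slfn2 (short), Slfn3 and Slfn4 (intermediate) and Slfn5 and Slfn8 (long). They were found as all array probes whose gene name equals one of these symbols, which gave 7 probes for 6 genes among the 21597 gene symbols of the array. All 6 genes were among the 17347 genes tested.

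Expression was measured in C57BL/6 mouse cells on 12 Agilent 2-colour arrays, with control cells and cells given the synthetic TLR4 agonist Kdo2 lipid A (KLA) for 1 h or 12 h. Each array carried both replicates of 1 condition, replicate 1 in Cy5 and replicate 2 in Cy3, so that 24 channels covered 12 conditions with n = 2 each. The question that the design addresses for these genes is at what level each was expressed before stimulation in each cell type, and how far and how fast KLA changed it. Thioglycollate-elicited peritoneal macrophages (EPM) were the cells that adhered overnight after a lavage taken 3 days after injection. Bone marrow-derived macrophages (BMDM) were grown from marrow with L-cell conditioned medium as the source of M-CSF. B cells were resting splenic cells left after magnetic depletion of cells bearing CD43 or CD11b. The early control was untreated for EPM and B cells and DMSO for 1 h for BMDM, and every 12 h control had DMSO. The labels call the replicates biological without saying that they came from separate animals, so p-values measure only the spread between these samples, and because both replicates of a condition shared an array that spread leaves out differences between arrays. Each cell type lay on 1 slide of its own, so cell type and slide cannot be told apart.

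All 10 macrophage markers were well above background in every macrophage group, with summed linear intensities of 658445 to 670375 in early control EPM, 564960 to 610390 in early control BMDM and 3431 to 4061 in early control B cells. All 9 B cell markers were well above background in B cells. Their sum in early controls was 282510 to 283396 in B cells, 64784 to 68036 in EPM and 26990 to 27650 in BMDM. Of these 9 markers, 6 were well above background in both channels of early control EPM and 6 in those of early control BMDM. Cr2 and Fcer2a, which mark mature B cells, were not well above background in either macrophage. The 7 neutrophil markers on the array summed to 14415 to 15011 in early control BMDM and to 1122 to 1219 in early control EPM. In a second table, of normalized values, 4 columns lay closest to the channels of another B cell condition. They were those labelled B cells with KLA for 1 h and with control for 12 h, each matching the opposite one. Values of these B cell groups are therefore given as labelled. The effect of exchanging the labels is given beside the Schlafen and interferon pathway calls.

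The 6 genes lie in 1 cluster on chromosome 11, and their promoters are shown because the members fall into groups by a short motif. RefSeq windows of 300 bases (250 before to 50 after each annotated start, assembly GRCm38.p6) were available for all 6 genes and gave 7 windows, Slfn8 having a pair of start sites. Slfn2, Slfn1, Slfn4 and Slfn3, which are neighbours in that order on the plus strand, each held the letters CCAGGAAGT on the strand opposite to the gene, printed here in capitals as they read on the gene's own strand.
Slfn2 (chr11:83065041-83065081, plus strand): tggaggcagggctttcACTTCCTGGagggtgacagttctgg
Slfn1 (chr11:83116730-83116770, plus strand): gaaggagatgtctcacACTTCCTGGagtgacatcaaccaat
Slfn4 (chr11:83175097-83175137, plus strand): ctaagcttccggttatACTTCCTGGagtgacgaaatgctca
Slfn3 (chr11:83191272-83191312, plus strand): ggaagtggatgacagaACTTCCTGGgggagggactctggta
Counted from the start site, the match ran from base -74 in Slfn1, -73 in Slfn4, -55 in Slfn2 and -42 in Slfn3. These letters were picked after the windows had been read, and 0.843% of all 32851 promoter windows hold them on either strand. They share the run AGGAAG with the PU.1 motif GAGGAAG, which was searched as well and matched no window of the 6 genes, against 13.6% of all windows.

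The long members did not hold CCAGGAAGT. Slfn5 and Slfn8 instead matched a minimal interferon-stimulated response element, searched on both strands as GAAA, any 2 bases and a second GAAA, which 3.44% of all windows hold. The same element is shown for Slfn9, a relative of Slfn8, because the windows of Slfn8 and Slfn9 were 84.9% identical, whereas the other pairs of windows compared ranged from 56.7% to 66.0%. Capitals mark the element.
Slfn5 (chr11:82951937-82951966, plus strand): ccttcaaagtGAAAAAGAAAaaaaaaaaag
Slfn8 (chr11:83020839-83020868, minus strand): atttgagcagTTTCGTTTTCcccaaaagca
Slfn9 (chr11:82991856-82991885, minus strand): atccgagcagTTTCGTTTTCccaaaaacaa
The element ran from base -155 to -146 in Slfn5, on the gene's strand, and from -48 to -39 in Slfn8, on the opposite strand. The second window of Slfn8 held the same bases, at -136 to -127 from its own start. An NF-kappaB motif, GGGA, any 2 bases and TTCC, was in no window of the 6 genes and in 1.47% of all windows, and TATAAA was in the Slfn4 window, at -19 to -14, and in 13.6% of all windows. A match or its lack says only which letters these windows hold, and other forms of these motifs were not searched.

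On the array, 5 members had 1 probe each and Slfn3 had 2, all of 60 bases and all placed on chromosome 11 of mm8. They lay at chr11:82938349-82938408 for Slfn1, chr11:82886484-82886543 for Slfn2, chr11:83031124-83031183 for the Slfn3 probe used, chr11:83005667-83005726 for Slfn4, chr11:82778342-82778401 for Slfn5 and, on the minus strand, chr11:82819576-82819635 for Slfn8. Each of these lists a RefSeq mRNA of its gene and no other. Values below are normalized log2 intensities, each condition being given as replicate 1 and replicate 2. Intensities were raised by an offset of 50 before the logarithm, so folds of dim genes are understated, and since probes differ in brightness levels are compared within a gene only.

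Before stimulation, Slfn1, Slfn3, Slfn4 and Slfn8 were at their highest in BMDM, lower in EPM and lowest in B cells. Slfn2 broke this order, and Slfn5 was at a like level in both macrophages. Early control Slfn2 was 13.10 ± 0.17 (SD, n = 2) in B cells, 12.89 ± 0.04 in BMDM and 11.58 ± 0.05 in EPM. Both EPM replicates (11.55 and 11.62) were thus below both BMDM replicates (12.92 and 12.85) and both B cell replicates (12.98 and 13.22). Slfn2, whose loss is known to break the quiescence of T cells and monocytes, was 2.87-fold higher in B cells than in EPM (log2 difference 1.52, limma adjusted p = 2.52e-10). Between B cells and BMDM the log2 difference of 0.22 missed the threshold (95% interval -0.01 to 0.45, limma adjusted p = 0.0785), while 5 alternatives called Slfn2 higher in B cells, among them the fit with dye as a block (0.22, limma adjusted p = 0.0463) and the processed signal (0.42, adjusted p = 8.26e-04). Without normalization between arrays the difference turned to -0.25 and was called as lower in B cells (limma adjusted p = 0.0418). Summed T cell markers were 4683 to 5013 in early control B cells, 943 to 980 in EPM and 803 to 846 in BMDM. Their part in the Slfn2 levels was not tested.

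The other 5 genes were lower in resting B cells than in either macrophage. Slfn5 was the widest apart, at 8.53 ± 0.19 in EPM and 8.50 ± 0.18 in BMDM (SD, n = 2) and not well above background in any B cell channel, at 5.88 ± 0.03. That left Slfn5 at least 5.43-fold lower in B cells than in EPM (limma adjusted p = 1.05e-13) and at least 5.31-fold lower than in BMDM. Slfn4 was likewise not well above background in any B cell channel, and was at least 1.93-fold lower there than in EPM and at least 2.54-fold lower than in BMDM. Slfn1, the founding short member, was not well above background in B cells either, and its level in EPM was only slightly above theirs, with a bound of at least 1.14-fold. Slfn8 was well above background in B cells at 6.90 ± 0.06, against 7.46 ± 0.10 in EPM and 8.62 ± 0.22 in BMDM, and Slfn3 was at 6.28 ± 0.05, 6.65 ± 0.04 and 7.33 ± 0.09 in the same order. All 6 genes passed the limma test between B cells and EPM, 1 higher and 5 lower in B cells, where 77.2% of all genes tested passed in either direction, and 5 were lower in B cells than in BMDM, where 39.1% of all genes passed as lower. In these bulk samples, fewer expressing cells and less RNA per cell cannot be told apart.

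Between the resting macrophages, 5 of the 6 genes were lower in EPM than in BMDM, where 29.3% of all genes tested were lower. Slfn2 was 2.47-fold lower in EPM (log2 -1.30, limma adjusted p = 7.38e-09) and Slfn8 differed by -1.16 on the log2 scale (adjusted p = 1.23e-07). For Slfn3 the log2 difference was -0.68 (adjusted p = 1.15e-06), for Slfn4 it was -0.40 (adjusted p = 0.0400) and for Slfn1 it was -0.21 (adjusted p = 9.66e-03). Slfn5 stood apart from these, with a log2 difference of 0.03 and an interval of -0.21 to 0.27. The Slfn4 call was made in 8 of 14 settings, and without BMDM control replicate 1 the calls of Slfn4 (-0.19, adjusted p = 0.411) and Slfn1 (-0.19, adjusted p = 0.0568) were lost and 3 calls were left. Here EPM had been left untreated and BMDM had received DMSO for 1 h, and the B cell and neutrophil marker sums given above also differed between these groups, whose part in the result was not tested.

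**Figure D1:**
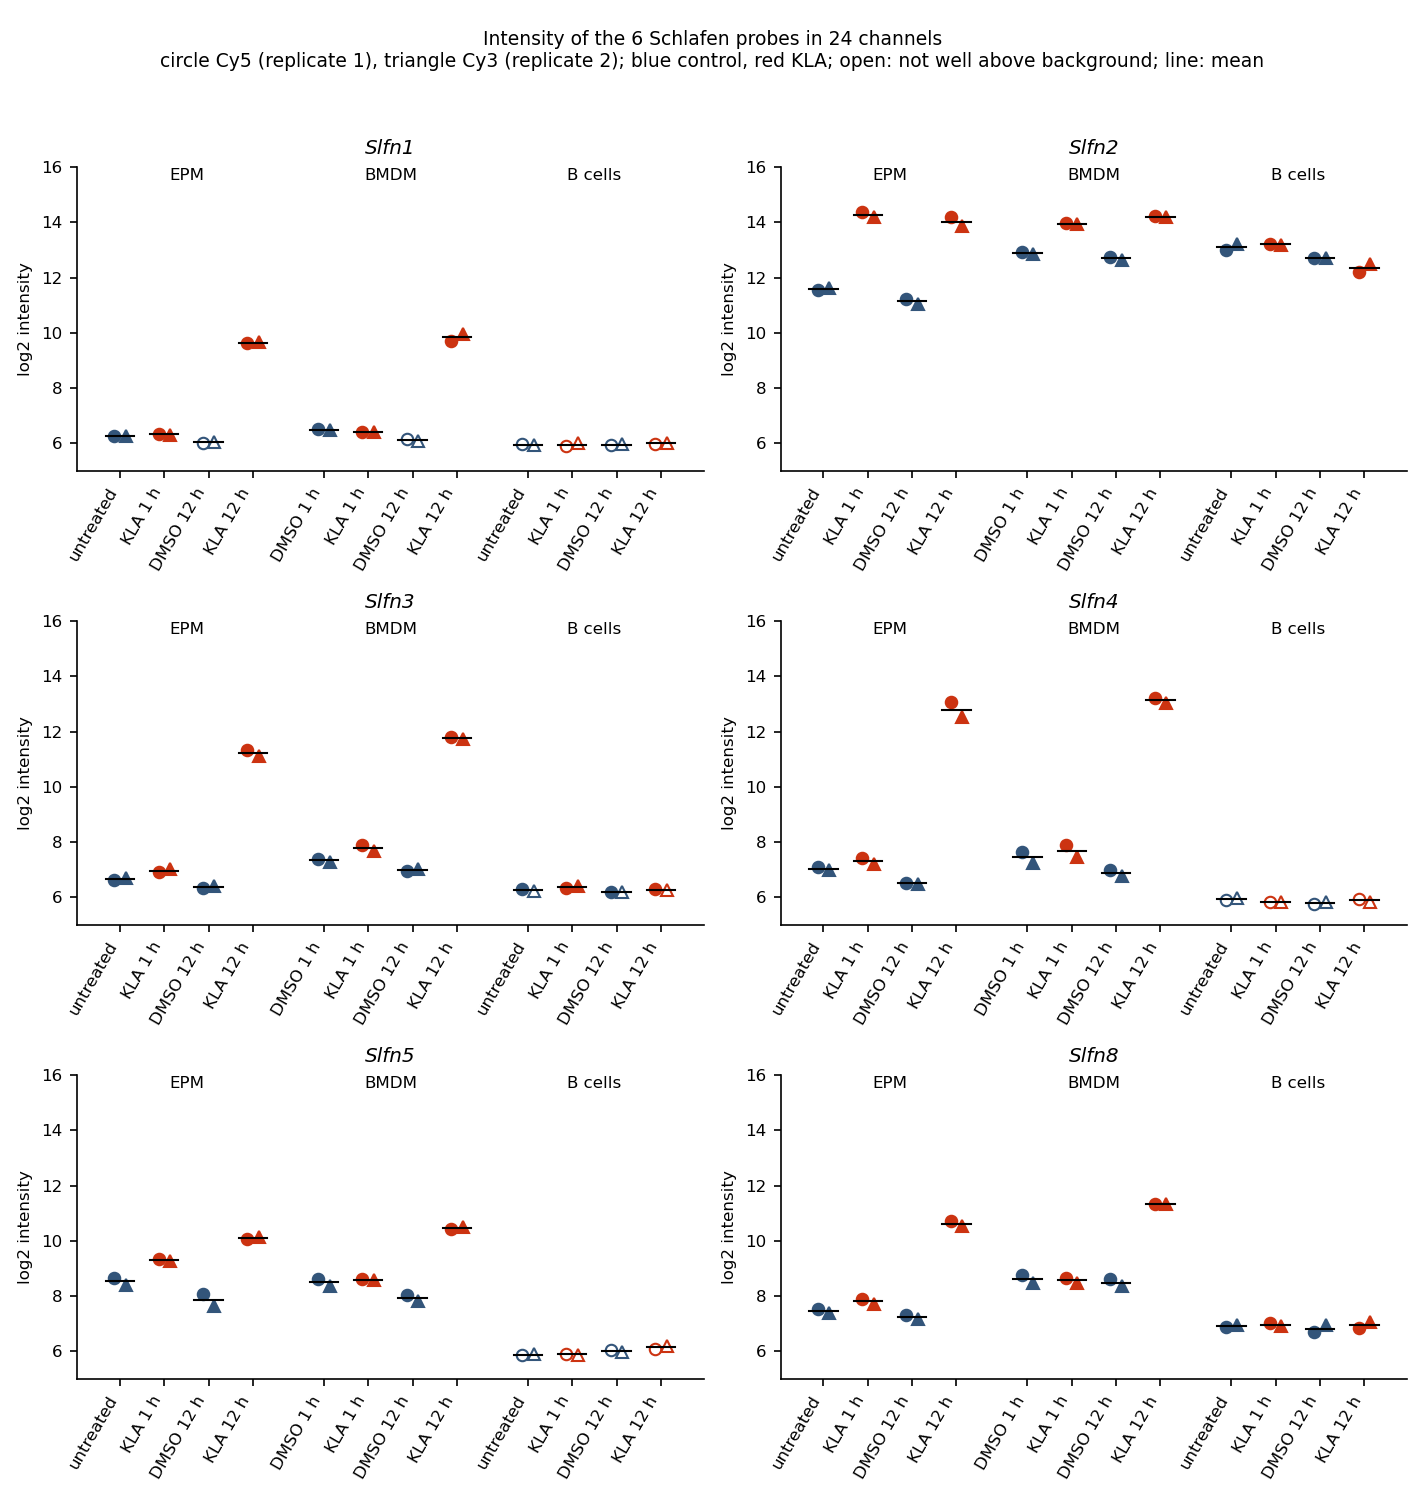
Normalized log2 intensity (y axis) of each Schlafen gene in the 12 conditions (x axis, grouped by cell type), with 1 point per replicate channel, a bar for the mean of n = 2, and open points where the probe was not well above background. All 6 genes were high after 12 h of KLA in both macrophages, Slfn2 was also high after 1 h and in B cells, and Slfn1, Slfn4 and Slfn5 were not well above background in any B cell channel.

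After 1 h of KLA the short member Slfn2 was the one that moved most. In EPM it was 11.55 and 11.62 in the control and 14.39 and 14.17 after KLA, and in BMDM it was 12.92 and 12.85 in the control and 13.96 and 13.94 after KLA. Control and KLA replicates did not overlap in either macrophage. The rise was 6.48-fold in EPM (log2 2.70 ± 0.11 SE, limma adjusted p = 9.61e-13) and 2.09-fold in BMDM (log2 1.07 ± 0.11 SE, adjusted p = 5.31e-07).

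The other early changes were smaller. Slfn5 was 8.67 and 8.40 in control EPM and 9.33 and 9.25 in EPM given KLA for 1 h, both KLA replicates above both controls, a rise of 1.69-fold (log2 0.76 ± 0.11 SE, limma adjusted p = 5.33e-05). Slfn3 was 6.63 and 6.68 in control EPM and 6.90 and 7.02 after KLA, again without overlap (log2 0.31, adjusted p = 8.45e-03). In BMDM, Slfn3 was 7.40 and 7.27 before and 7.90 and 7.66 after KLA (log2 0.45, adjusted p = 4.30e-04). Slfn8 rose in EPM from 7.53 and 7.39 to 7.90 and 7.71 (log2 0.35, adjusted p = 0.0353). Slfn8 in BMDM had a log2 change of -0.05 (adjusted p = 0.800) and Slfn5 in BMDM one of 0.09 (adjusted p = 0.640). Slfn1 and Slfn4 passed in neither macrophage at 1 h, with log2 changes of 0.05 and 0.26 in EPM and -0.07 and 0.24 in BMDM.

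At 1 h, therefore, 4 of 6 members were higher in EPM, where 9.39% of all genes tested were higher, and 2 of 6 were higher in BMDM, where 11.0% were. The smaller calls depended on single replicates: that of Slfn8 in EPM was lost without control replicate 1 (log2 0.42, limma adjusted p = 0.0552), control replicate 2 (0.28, adjusted p = 0.205) or KLA replicate 1 (0.25, adjusted p = 0.269), and that of Slfn3 without control replicate 1 (0.28, adjusted p = 0.0650) or KLA replicate 2 (0.25, adjusted p = 0.0926). When each array's mean was taken as 1 sample and both control arrays of a cell type as replicates, 163 of all 17347 genes were called in EPM at 1 h and 100 in BMDM, and among the Schlafens only Slfn2 in EPM (log2 2.92, limma adjusted p = 0.0208). That fit takes the mean of the early and the 12 h control, so its 1 h changes also hold the change between those controls. For the others called at 1 h it gave log2 changes of 1.10 for Slfn5, 0.45 for Slfn3 and 0.45 for Slfn8 in EPM. In BMDM it gave 1.16 for Slfn2 and 0.62 for Slfn3. The size of these values is therefore not comparable with that of the changes above. Summed neutrophil markers were also higher after 1 h of KLA, at 1971 to 2050 against 1122 to 1219 in EPM and at 21095 to 24847 against 14415 to 15011 in BMDM, and their part in these changes was not tested.

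After 12 h of KLA all 6 genes were higher in both macrophages, which makes 6 of 6 beside a background of 19.6% of all genes higher in EPM and 28.6% in BMDM. The intermediate members Slfn4 and Slfn3 had the largest rises among genes detected in both groups. Slfn4, which is known as an interferon- and TLR-induced gene of myeloid cells, was 6.51 and 6.50 in 12 h control EPM and 13.08 and 12.51 after KLA. In BMDM it was 6.97 and 6.79 in the control and 13.23 and 13.02 after KLA. The rise of Slfn4 was 78.2-fold in EPM (log2 6.29 ± 0.16 SE, limma adjusted p = 1.68e-16) and 75.9-fold in BMDM (log2 6.25 ± 0.16 SE, adjusted p = 1.91e-16). Slfn3 went from 6.33 and 6.40 to 11.32 and 11.10 in EPM, a 28.7-fold rise (log2 4.84 ± 0.08 SE, adjusted p = 5.42e-19). In BMDM, Slfn3 went from 6.94 and 7.04 to 11.82 and 11.72, a 27.5-fold rise (log2 4.78 ± 0.08 SE, adjusted p = 8.86e-19). For both genes the replicates of KLA and control lay far apart, and the gap between replicates of Slfn4 after KLA in EPM, 0.57 on the log2 scale, was the widest of any member.

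The short member Slfn1 was near background until 12 h of KLA. It was well above background in the early controls, at 6.28 and 6.28 in EPM and 6.50 and 6.47 in BMDM, and after 1 h of KLA, at 6.33 and 6.32 and at 6.42 and 6.41. In the 12 h controls it was not well above background, at 6.00 and 6.06 in EPM and at 6.16 and 6.10 in BMDM. After 12 h of KLA it was 9.62 and 9.66 in EPM and 9.72 and 9.95 in BMDM, all well above background. Slfn1 was therefore at least 12.0-fold higher in EPM (limma adjusted p = 1.02e-18) and at least 13.0-fold higher in BMDM (adjusted p = 9.22e-19). Slfn2 was 11.23 and 11.04 in 12 h control EPM and 14.19 and 13.85 after KLA, a 7.37-fold rise (log2 2.88 ± 0.11 SE, adjusted p = 7.06e-14). In BMDM, Slfn2 went from 12.73 and 12.65 to 14.24 and 14.17, a 2.86-fold rise and the smallest of the 12 h changes (log2 1.51 ± 0.11 SE, adjusted p = 6.08e-10).

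The long members Slfn8 and Slfn5 rose as well. Slfn8 was 7.32 and 7.17 in 12 h control EPM and 10.72 and 10.52 after KLA, a 10.4-fold rise (log2 3.37 ± 0.12 SE, limma adjusted p = 2.55e-14). In BMDM, Slfn8 went from 8.60 and 8.35 to 11.33 and 11.32, a 7.21-fold rise (log2 2.85 ± 0.12 SE, adjusted p = 2.32e-13). Slfn5 was 8.06 and 7.65 in 12 h control EPM and 10.07 and 10.14 after KLA, a 4.77-fold rise (log2 2.26 ± 0.11 SE, adjusted p = 5.50e-12). In BMDM, Slfn5 went from 8.03 and 7.80 to 10.44 and 10.50, a 5.87-fold rise (log2 2.55 ± 0.11 SE, adjusted p = 6.17e-13). No KLA replicate of either gene overlapped a control replicate.

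The 12 h rises were called, as higher, in 184 of 184 values over all settings tried, left-out replicates included, with log2 changes from 1.42 to 7.82. Their size depended on how dim signals were treated. From Agilent's processed signal the log2 rise in EPM was 7.66 for Slfn1, 6.90 for Slfn3 and 7.82 for Slfn4, and in BMDM it was 6.68, 5.65 and 7.34 for the same genes. The median log2 change of the 6 genes at 12 h was 3.49 in EPM and 3.28 in BMDM, against -0.06 and -0.03 over all genes tested. Summed neutrophil markers were also higher after 12 h of KLA in BMDM, at 19828 to 22793 against 9999 to 11697 in the 12 h control, and in EPM they were 1277 to 1603 against 1123 to 1125. Their part in the Schlafen rises was not tested. Macrophage marker sums after 12 h of KLA were 619313 to 630532 in EPM and 633597 to 659856 in BMDM, inside the range of the 12 h control in EPM and just above it in BMDM (627057 to 631534).

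The second Slfn3 probe disagreed with the first. It lies at chr11:83033757-83033816 of mm8 and lists a cDNA clone and no RefSeq mRNA. In B cells and EPM it was not well above background in any condition, and in BMDM its mean log2 intensity was 6.56 in the 1 h control, 6.46 after 1 h of KLA, 6.64 in the 12 h control and 6.66 after 12 h of KLA. Where both probes were averaged, the Slfn3 rise at 12 h was 2.45 on the log2 scale in EPM and 2.40 in BMDM.

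**Figure D2:**
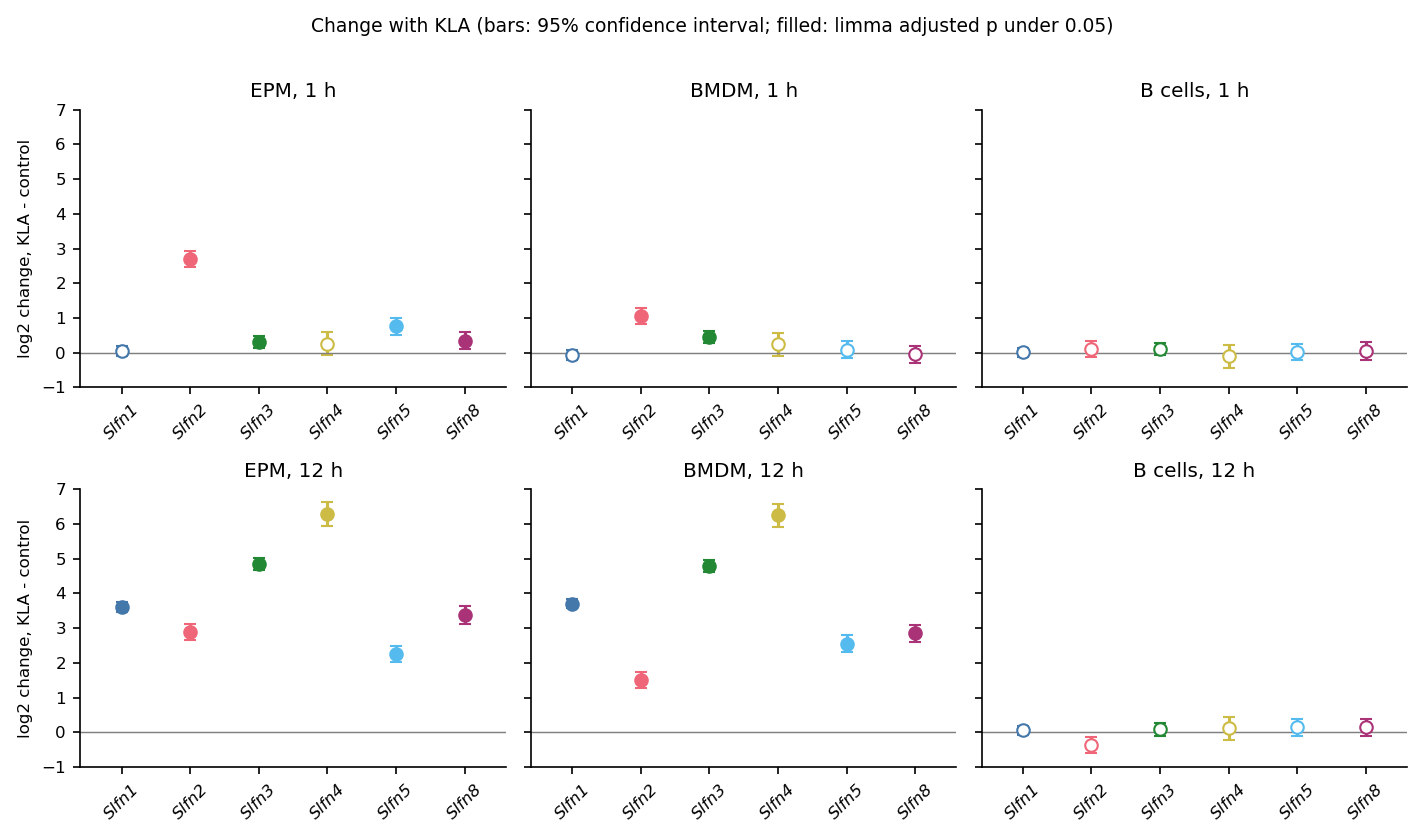
Log2 change with KLA against control (y axis) for the 6 Schlafen genes (x axis). The 1 h control was untreated for EPM and B cells and DMSO for 1 h for BMDM, and the 12 h control was DMSO. Panels show EPM, BMDM and B cells at 1 h and 12 h, with 95% intervals from the limma fit. At 12 h all 6 genes were above 0 in both macrophages, from 1.51 for Slfn2 in BMDM to 6.29 for Slfn4 in EPM. The B cell values lay between -0.36 and 0.14.

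The members differed in their timing. As a comparison chosen after seeing the data, the change at 12 h was set against the change at 1 h in the same fit. In EPM it was larger at 12 h for 5 of 6 genes, with 19.4% of all genes as background, and Slfn2 was the exception with a log2 difference of 0.19 (limma adjusted p = 0.363). In BMDM it was larger at 12 h for 6 of 6 genes, with a background of 24.5%, although for Slfn2 by only 0.45 on the log2 scale (adjusted p = 0.0204). For Slfn4 the difference was 6.03 in EPM and 6.01 in BMDM, and for Slfn3 it was 4.53 and 4.33. For the long members it was 3.03 and 2.90 for Slfn8 and 1.50 and 2.47 for Slfn5. Slfn1 is counted among the larger changes at 12 h, but its 12 h controls were not well above background, so the size of its difference is not given.

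The controls themselves were not flat over the 12 h. In EPM, 5 of 6 genes were lower in the 12 h DMSO control than in the untreated early control, where 8.31% of all genes were lower, the largest difference being -0.68 on the log2 scale for Slfn5 (limma adjusted p = 2.83e-04). In BMDM, 4 of 6 genes were lower at 12 h, where 9.98% of all genes were, with Slfn5 at -0.58 (adjusted p = 1.00e-03) and Slfn4 at -0.56 (adjusted p = 0.0156). Slfn8 passed in neither macrophage. Leaving out 1 of the 4 EPM control channels left 1 to 3 of the 5 calls, leaving out replicate 1 of the 1 h control left 2 of the 4 in BMDM, and Slfn5 was called in every one of these. In B cells Slfn2 alone was lower, by -0.39 on the log2 scale (adjusted p = 6.07e-03), where 22.4% of all genes were lower, and with the B cell labels exchanged this difference was 0.09 and was not called. Summed neutrophil markers in BMDM were 14415 to 15011 in the early control and 9999 to 11697 in the 12 h control, summed macrophage markers in B cells were 3431 to 4061 and 7155 to 7206, and their part in these changes was not tested. In EPM and B cells the 12 h control differs from the early one in DMSO as well as in time, which cannot be told apart.

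B cells showed no Schlafen call with KLA by limma at either time. At 1 h, 0 of 6 genes passed, where 5.17% of all genes did, and none had an unadjusted p under 0.05, the log2 changes ranging from -0.11 to 0.11. At 12 h, 0 of 6 passed, where 5.29% of all genes did, and 1 gene, Slfn2, had an unadjusted p under 0.05. Slfn2 was 12.72 and 12.71 in the 12 h control and 12.21 and 12.50 after KLA, both KLA replicates below both controls, at a log2 difference of -0.36 (unadjusted p = 4.43e-03, limma adjusted p = 0.0713). Slfn2 was called lower at 12 h in 4 of the 16 settings run with the labels as given. Among them were the fit with dye as a block (limma adjusted p = 0.0198) and the fit without KLA replicate 2 (-0.50). Another was the second table, of normalized values (-0.75). Its columns for B cells with control for 12 h lay closest to the channels of KLA for 1 h, so it may in effect exchange the labels. With the B cell labels exchanged, Slfn2 was called lower at both times, by -0.39 at 1 h and -0.84 at 12 h (adjusted p = 3.73e-06). Slfn1, Slfn4 and Slfn5 were not well above background in any B cell channel, so for them the arrays set only an upper limit on the level in B cells. Slfn8 stayed between 6.82 ± 0.17 and 6.96 ± 0.14 in the 4 B cell conditions (SD, n = 2), and Slfn3 between 6.20 ± 0.01 and 6.38 ± 0.05, well above background in both channels only after 1 h of KLA and in 1 of 2 channels in the other conditions.

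The response was then compared between the macrophages, as the KLA change in EPM minus the KLA change in BMDM. At 1 h, Slfn2 responded more in EPM by 1.63 ± 0.15 SE on the log2 scale (interval 1.30 to 1.96, limma adjusted p = 6.74e-07) and Slfn5 responded more by 0.67 on the log2 scale (interval 0.33 to 1.01, adjusted p = 0.0109), so that 2 of 6 genes passed where 4.07% of all genes did as higher in EPM. At 12 h, Slfn2 responded 2.58-fold more in EPM (log2 1.37, adjusted p = 8.57e-07) and Slfn8 more by 0.53 (interval 0.17 to 0.88, adjusted p = 0.0160), 2 of 6 where 23.2% of all genes passed. Slfn3 and Slfn4 had 12 h differences of 0.06 (interval -0.19 to 0.31) and 0.04 (interval -0.43 to 0.52). That of Slfn3 depended on the processing and was called as larger in EPM in 3 of 19 settings. It was 1.25 with the processed signal (limma adjusted p = 4.05e-04) and 0.37 with an offset of 16 (adjusted p = 0.0452). Without quantile normalization between arrays it was 0.32 (adjusted p = 0.0296). For Slfn5 the 12 h difference was -0.30 (interval -0.64 to 0.04) and for Slfn1, whose 12 h controls were not well above background, it was -0.10 (adjusted p = 0.389).

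Calls for Slfn5 and Slfn8 rested on single replicates. That of Slfn5 at 1 h was lost without EPM control replicate 2 (0.54, limma adjusted p = 0.0692), EPM KLA replicate 1 (0.63, adjusted p = 0.0516) or BMDM control replicate 1 (0.54, adjusted p = 0.0745), and that of Slfn8 at 12 h without EPM control replicate 2 (0.45, adjusted p = 0.0675), EPM KLA replicate 1 (0.43, adjusted p = 0.0766) or BMDM control replicate 1 (0.40, adjusted p = 0.0896). The Slfn2 difference was called in 19 of 20 settings at each time. The exception was the fit to array means, where it was 1.76 at 1 h and 1.24 at 12 h, and where 0 and 107 of all 17347 genes were called at these times.

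The levels reached after KLA are set beside these responses. In a comparison chosen after seeing the data, Slfn2 after 12 h of KLA was 14.02 ± 0.24 in EPM and 14.21 ± 0.05 in BMDM (SD, n = 2), a log2 difference of -0.19 that missed the threshold (limma adjusted p = 0.143), whereas the 12 h controls were 11.14 ± 0.13 and 12.69 ± 0.06. After KLA, 4 of 6 genes were lower in EPM than in BMDM, where 33.9% of all genes were. These were Slfn8 at -0.70 (adjusted p = 4.83e-05), Slfn3 at -0.56 (adjusted p = 1.01e-05), Slfn5 at -0.36 (adjusted p = 9.99e-03) and Slfn1 at -0.20 (adjusted p = 0.0119). Slfn4 differed by -0.33 and missed the threshold (adjusted p = 0.0776).

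**Figure D3:**
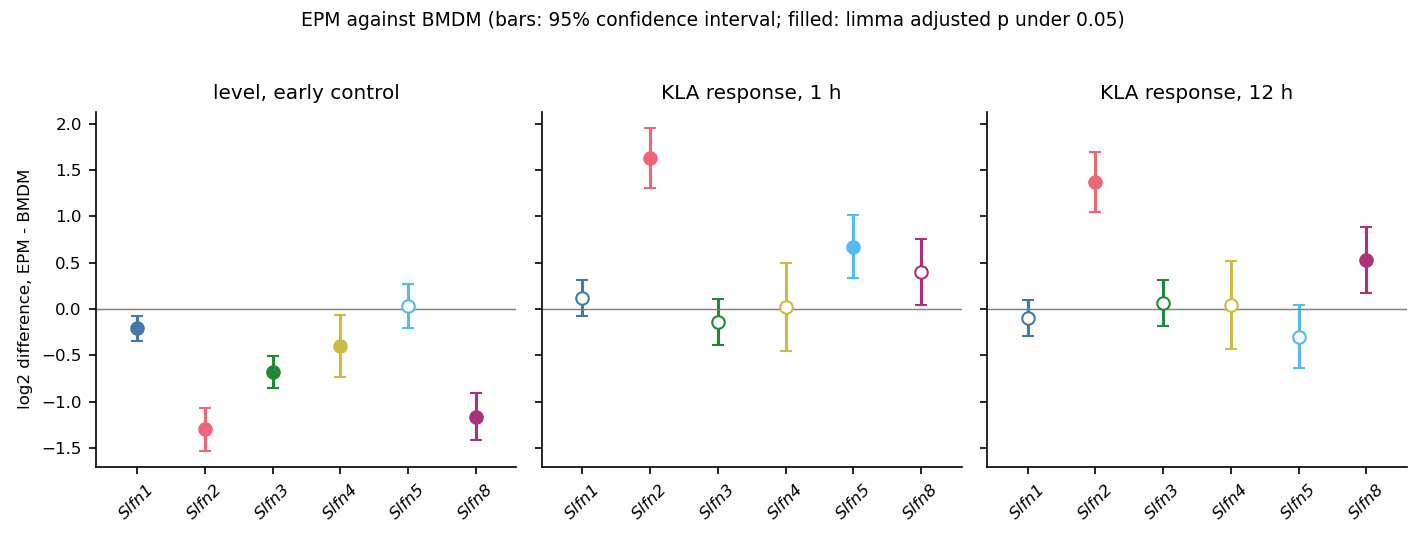
EPM minus BMDM on the log2 scale (y axis) for the 6 Schlafen genes (x axis). Panels show the early control level and the response to KLA at 1 h and 12 h, with 95% intervals from the limma fit. Slfn2 was lower in resting EPM (-1.30) and had the larger response there (1.63 at 1 h and 1.37 at 12 h). In this fit the 12 h response differences of Slfn3 and Slfn4 lay close to 0, while 3 of 19 other settings called that of Slfn3.

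Ranked over the 12 conditions, every member but Slfn2 was highest in BMDM after 12 h of KLA and lowest in a B cell condition. For Slfn1, Slfn4 and Slfn5 no B cell condition was well above background, so these conditions have no order and no range is given. From the lowest to the highest condition the log2 range was 5.57 for Slfn3, 4.50 for Slfn8 and 3.14 for Slfn2, the lowest condition of Slfn3 being well above background in 1 of its 2 channels. For Slfn1, EPM after 12 h of KLA came second, and its replicates lay below those of BMDM without overlap, as was the case for Slfn3, Slfn5 and Slfn8. The share of all genes without such overlap was not counted, while 33.9% of all genes passed as lower in EPM here. Slfn2 was highest in EPM after 1 h of KLA, followed by BMDM after 12 h, EPM after 12 h and BMDM after 1 h, and each of these neighbours overlapped the next. Below them came the untreated and 1 h KLA B cells, and lowest of all was 12 h control EPM. Of the 11 pairs of neighbouring conditions in a ranking, the replicates overlapped in 5 for Slfn2 and Slfn8 and in 3 for Slfn3. These numbers were not counted over all genes and only describe the rankings. Across the 12 condition means, which share arrays, slides and normalization, Pearson's r between Slfn2 and the other members was 0.44 to 0.60, and between the other members it was 0.75 to 0.99.

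The relatives in the same cluster were measured by probes that do not separate them. The Slfn9 probe also lists the RefSeq mRNA of Slfn8, and the Slfn10 probe lists those of Slfn8 and Slfn9, so neither can be assigned to 1 gene. After 12 h of KLA the Slfn9 probe was higher by 3.81 on the log2 scale in EPM (limma adjusted p = 5.75e-14) and by 3.17 in BMDM (adjusted p = 6.26e-13). The Slfn10 probe was higher by 2.41 in EPM (adjusted p = 1.72e-14) and by 1.98 in BMDM (adjusted p = 2.43e-13), and at 1 h by 0.32 in EPM (adjusted p = 7.50e-03). In B cells the Slfn9 probe kept to mean log2 intensities between 7.30 and 7.38.

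Genes that flank the Schlafen cluster changed less. Of 12 flanking genes tested, 4 were higher and 2 lower in EPM after 12 h of KLA, with log2 changes from -0.31 to 0.60, and 3 were higher and 2 lower in BMDM, from -0.51 to 1.62. Over all genes 19.6% were higher and 34.3% lower in EPM and 28.6% higher and 36.3% lower in BMDM. Unc45b, a myosin chaperone gene that neighbours Slfn5, was higher by 0.21 in EPM and 0.31 in BMDM at 12 h. Ap2b1, an adaptor subunit gene on the Slfn3 side of the cluster, was higher by 0.58 and 1.00. Rffl, a ubiquitin ligase gene further out beyond Slfn5, was higher at every macrophage time, by 1.03 and 0.60 in EPM at 1 h and 12 h and by 0.96 and 1.62 in BMDM. Each of these was smaller than the 12 h change of any member in EPM, and in BMDM Rffl alone passed that of Slfn2.

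**Figure D4:**
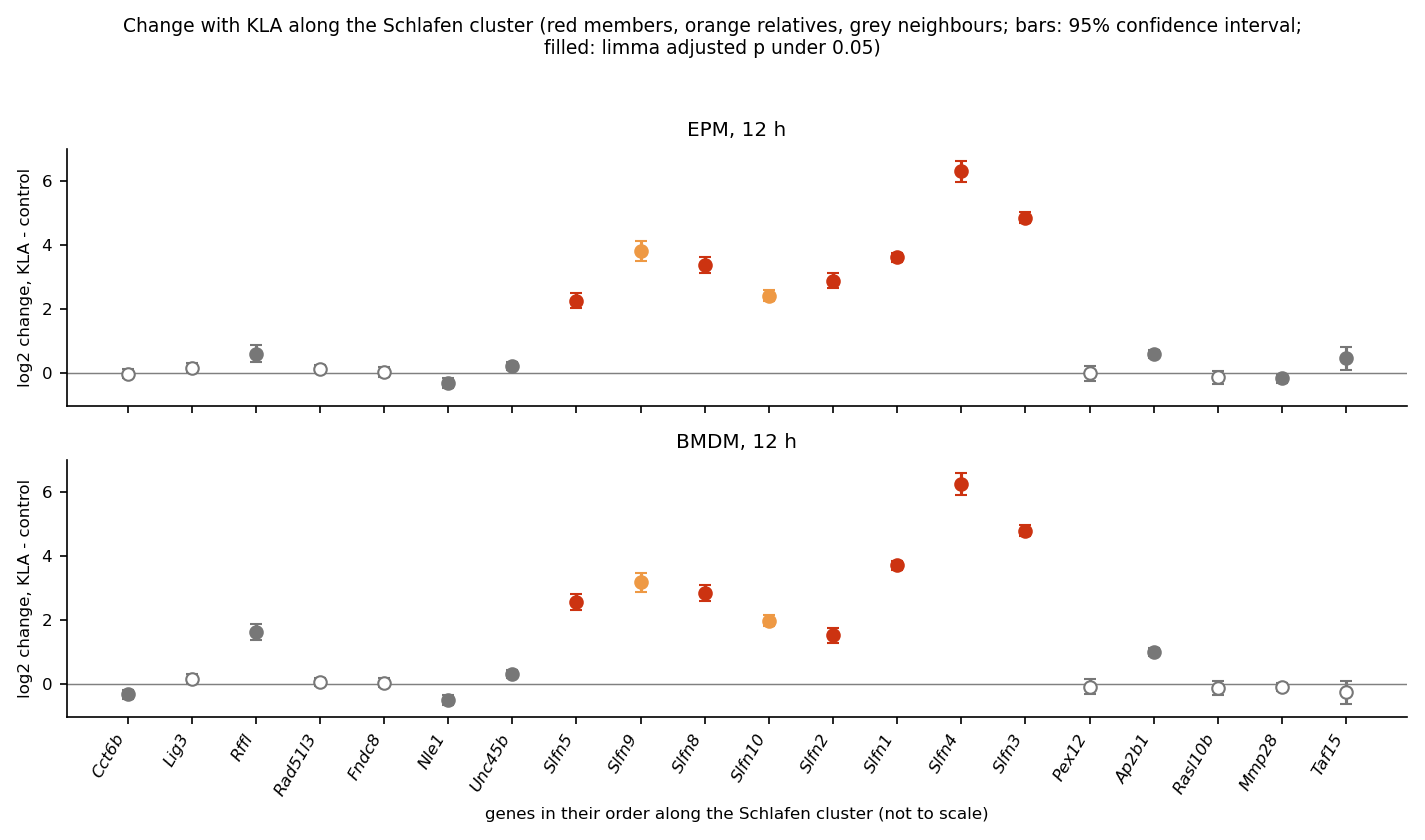
Log2 change after 12 h of KLA (y axis) for genes in their order along the Schlafen cluster of chromosome 11 (x axis, order only, not to scale), in EPM and BMDM, with 95% intervals from the limma fit. Schlafen genes and relatives were at 1.51 or above, while the flanking genes lay between -0.51 and 1.62.

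The type I interferon pathway, given as a list of 33 measured genes, is set beside the Schlafens because several members are known interferon targets. Ifnb1, which encodes interferon beta, was not well above background in early controls and was at least 181-fold higher after 1 h of KLA in EPM and at least 575-fold higher in BMDM, at a time when Slfn1 and Slfn4 passed in neither macrophage. At 12 h Ifnb1 was still higher by 1.22 on the log2 scale in EPM and by 4.32 in BMDM. Of the receptor chains, Ifnar2 was higher by 0.86 in EPM and 0.18 in BMDM at 12 h and Ifnar1 by 0.44 and 0.43. The transcription factor genes Stat2 and Irf7 did not pass as higher at 1 h in either macrophage and were higher at 12 h, Stat2 by 3.63 in EPM and 2.71 in BMDM and Irf7 by 5.64 and 4.08. Stat2 had a log2 change of -0.41 in EPM at 1 h, which passed as lower (limma adjusted p = 3.79e-03).

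By counts, the pathway list had 12 genes higher and 1 lower in EPM at 1 h, 28 higher and 2 lower in EPM at 12 h, 17 higher and 2 lower in BMDM at 1 h and 28 higher and 2 lower in BMDM at 12 h. Over all genes, in the same order, 9.39% were higher and 19.7% lower, 19.6% higher and 34.3% lower, 11.0% higher and 17.6% lower, and 28.6% higher and 36.3% lower. Its 19 target genes were all higher at 12 h in both macrophages, with median log2 changes of 6.40 in EPM and 4.67 in BMDM, beside Schlafen medians of 3.49 and 3.28. At 12 h, 18 of the 19 targets responded more in EPM than in BMDM, as did 23.2% of all genes, with a median log2 difference of 1.73, whereas among the Schlafens this held for Slfn2 and Slfn8. At 1 h, 9 of the targets were already higher in EPM and 12 in BMDM, Ifit1 for example by 4.27 in EPM. In B cells, 1 gene of the list was higher at 1 h and 9 were higher at 12 h, where 2.72% and 2.81% of all genes were, and with the B cell labels exchanged the numbers called were 19 and 21 of 33, where 47.4% and 49.1% of all genes were called.

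**Figure D5:**
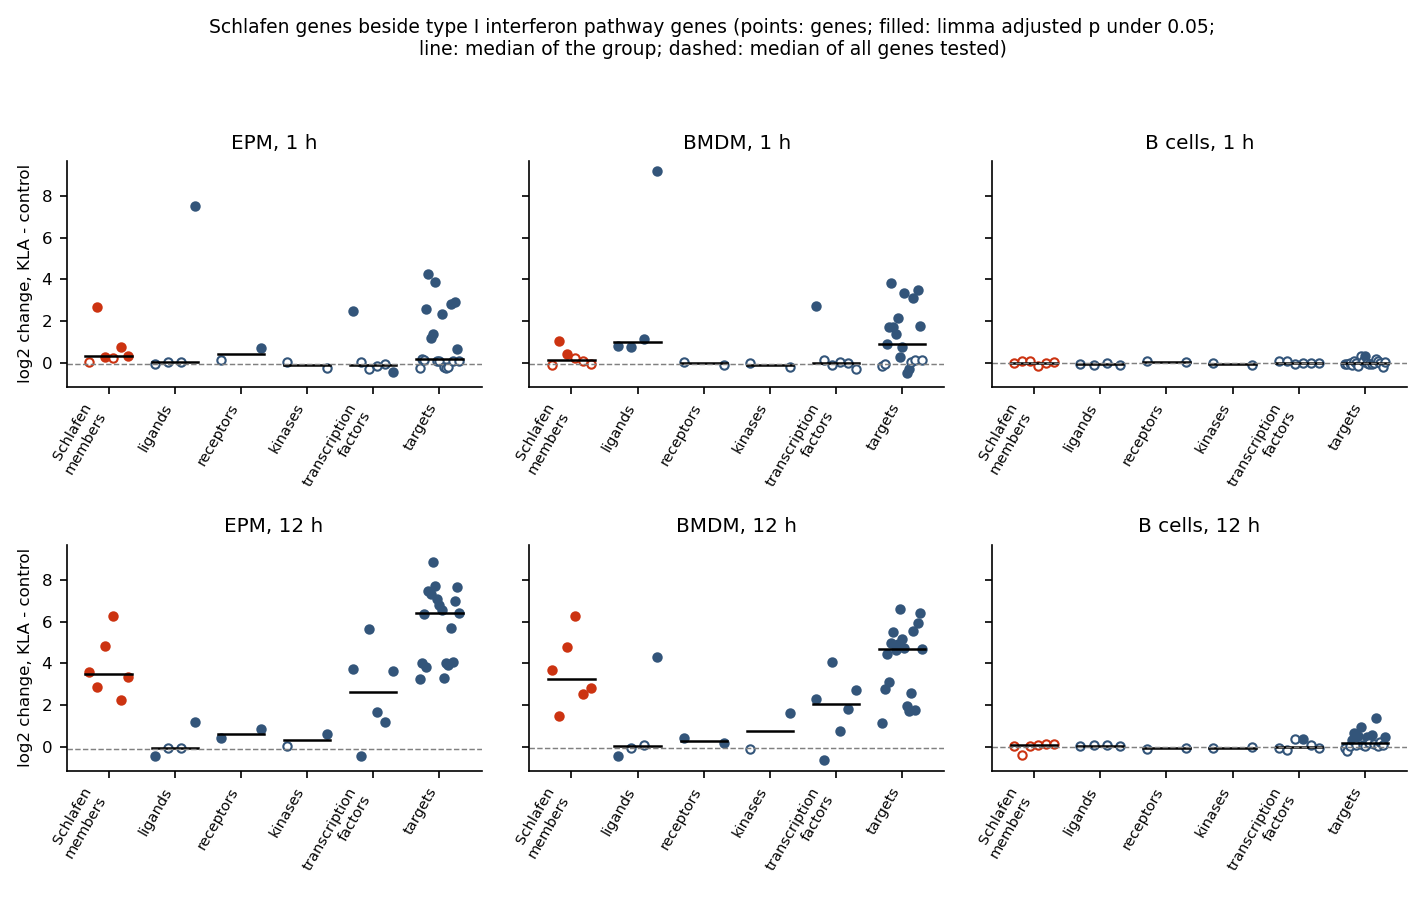
Log2 change with KLA (y axis) for the 6 Schlafen genes and for type I interferon pathway genes by role (x axis) in EPM and BMDM at 1 h and 12 h, with 1 point per gene and a bar for the median. Ifnb1 stood highest at 1 h (7.50 in EPM and 9.17 in BMDM), and at 12 h the medians were 6.40 and 4.67 for targets and 3.49 and 3.28 for Schlafens.

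The genes whose pattern was most like that of each member were taken as the 3 with the highest Pearson's r over the 12 condition means, a description from points that share arrays and slides. For Slfn2 they were Ehd1, an endosomal recycling gene, Trex1, an exonuclease gene, and Nfkbia, which encodes the NF-kappaB inhibitor, with r of 0.91, 0.91 and 0.90. Nfkbia was higher after 1 h of KLA by 4.62 on the log2 scale in EPM and 3.04 in BMDM, Trex1 by 2.55 and 1.84 and Ehd1 by 2.14 and 0.74. All partners named here were picked for their likeness over these same conditions. Their KLA changes therefore only describe that choice and are no separate result. The other members had closer partners, with r of 0.98 or higher. Those of Slfn1 were Clic5, Tmem67 and Tnfsf10, the last encoding the death ligand TRAIL, which was higher at 12 h by 4.25 in EPM and 4.64 in BMDM. Those of Slfn4 included Oas1g, an oligoadenylate synthetase gene, and the first of those of Slfn8 was Mx1, an antiviral GTPase gene, higher at 12 h by 6.77 in EPM and 5.16 in BMDM. Those of Slfn3 included Cst7, a cystatin gene, and those of Slfn5 included Chit1, a chitinase gene, and Tlr6, a Toll-like receptor gene.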

How the data were processed

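The authors deposited scanner intensity values of 12 arrays, read with Agilent Feature Extraction 9.5.3.1 per the submitters' processing notes and placed on mm8 per the file headers, and a table of normalized intensity on a linear scale for 38516 probes, of which log2 was taken. How that deposited table was normalized is not given in the sources used here. Mean intensities were corrected against the median background with normexp (offset 50), controls were dropped, and channels were normalized within arrays by loess and between arrays by Aquantile, which gave single-channel log2 values. Outlier spots were set to missing (134 values), spots of a probe were averaged, and a gene was read from its probe with the highest mean. No Schlafen spot was saturated. A gene was tested if both replicates of some condition had it well above background.

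All 24 channels were fitted in limma 3.58.1 (R 4.3.3) with 1 coefficient per condition, 12 residual degrees of freedom and Benjamini-Hochberg adjustment over the 17347 genes tested, at 0.05. A gene called by limma is one under that threshold, and folds against a group not well above background are bounds, set at the lowest signal well above background on each array (log2 5.44 to 6.16) or at the probe's own value where that was higher. The fit was run on simulated data with independent noise in each channel. That run leaves out what replicates on the same array share, and so does not show error control for this design. Precision is limited by the 2 replicates. A channel number does not mark a shared animal or batch in the labels, but the Cy5 to Cy3 differences of the 66 pairs of arrays correlated at 0.27 to 0.63 (median 0.44), so dye was fitted as a block as an alternative.

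Members, gene lists and motifs were chosen with earlier results of these data known. Genes outside the family were named from lists of relatives and flanking genes, of the type I interferon pathway and of growth genes, and as the 3 genes most alike over condition means. Alternatives were normexp offset 16, the processed signal, no quantile step between arrays, quantiles over single channels, the deposited table, a stricter filter or none on dim probes, the mean of a gene's probes, dye as a block, only the cell types compared, array means as samples, an adjusted p under 0.01, exchanged B cell labels and each replicate left out. Of the 24 columns of the deposited table, 20 lay closest to their own channel and 4 did not. Promoter windows came from RefSeq tables of GRCm38.p6, and probe coordinates were not carried to that build. Slfn14 is not analysed here.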

Additional observations from a re-analysis of the deposited data

Results flagged for a closer look

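4 Schlafen results stood out because the response to KLA differed between EPM and BMDM by the limma test of the difference itself, each with EPM minus BMDM on the log2 scale. Slfn2 responded more in EPM at 1 h by 1.63 and at 12 h by 1.37. Slfn5 responded more in EPM at 1 h by 0.67, and Slfn8 at 12 h by 0.53. EPM and BMDM lay on separate slides, so cell type and slide cannot be told apart in these differences. They also differed in their early control, untreated against DMSO, and its part in the 1 h differences was not tested. The 12 h differences were taken from DMSO controls in both. With 2 replicates in each condition no search for a single outlying sample was made.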

How the results depend on the processing

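The counts of Schlafen genes higher at 12 h in EPM and BMDM remained 6 of 6 under every setting but the filter that asks for all channels well above background, which left 2 members to test. With that filter the numbers called were 2 in EPM at 1 h and 2 at 12 h, 1 in BMDM at 1 h and 2 at 12 h, 1 for the response difference at 1 h, 2 for EPM against BMDM and 2 for B cells against EPM in early controls, 1 for B cells against BMDM, and 1 in EPM and 0 in BMDM for the 12 h against the early control. Of the pairing by dye, the fit with dye as a replicate block moved the count in B cells at 12 h from 0 to 1 and changed no other count by over 1.5 times. With array means as samples, where few of all genes passed, 1 gene was called in EPM and 0 in BMDM at 1 h, and 0 for the response difference at 1 h and 0 at 12 h. At an adjusted p under 0.01, 1 was called for the response difference at each time and 2 for the EPM controls. With the processed signal 2 were called in B cells at 12 h, 1 of them Slfn5, which was not well above background there, 2 for the B cell controls, 1 for the response difference at 1 h and 4 at 12 h, and without quantile normalization between arrays also 4 at 12 h. With the deposited table, and likewise with the B cell labels exchanged, 1 was called in B cells at 1 h, 1 at 12 h and 0 for the B cell controls, where 41.8% and 44.2% of all genes (deposited table) and 47.4% and 49.1% (labels exchanged) were called at 1 h and 12 h. Leaving out 1 replicate gave 2 to 3 in EPM at 1 h, 1 to 2 for the response difference at 1 h and 1 to 3 at 12 h, 3 to 5 for EPM against BMDM, 1 to 3 for the EPM controls, 2 to 4 for the BMDM controls, 0 to 1 for the B cell controls and 0 to 1 in B cells at 12 h. Some directions turned. The Slfn1 response difference at 12 h (-0.10) became 0.98 with the processed signal and 0.23 without quantile normalization, and Slfn2 in B cells against BMDM (0.22) became -0.25 without it. Each of these turned values was called. For Slfn2 in B cells, the 1 h change (0.09) became -0.34 with the deposited table and -0.39 with labels exchanged, and the 12 h against early control (-0.39) became 0.052 and 0.094. The causes were not tested. Signals near background set only bounds for Slfn1, Slfn4 and Slfn5 in B cells and for Slfn1 in the 12 h macrophage controls, and Slfn3 in B cells lay close to background.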

Other observations

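Because Schlafen proteins are linked to quiescence, 13 tested growth genes are given as values. In BMDM after 12 h of KLA, 7 were lower and 1 was higher, where 36.3% of all genes were lower and 28.6% higher, Ccna2, which encodes cyclin A2, having a log2 change of -3.59 and Mki67, a proliferation marker, one of -2.42, while Ccnd2, which encodes cyclin D2, was higher by 1.93. In EPM at 12 h, 7 were lower and 5 higher, where 34.3% of all genes were lower and 19.6% higher, with Ccna2 at -0.24 and Mki67 at -0.45. Ccnd1, which encodes cyclin D1, had a 12 h change of 0.84 in EPM and of -0.65 in BMDM, and Klf2, a quiescence factor, was lower in EPM at 12 h by -0.57. In B cells, 0 passed by limma at 1 h, where 5.17% of all genes did, and 0 had an unadjusted p under 0.05. At 12 h, 3 were higher, where 2.81% of all genes were. These B cell counts are as labelled, and none is given with the labels exchanged. After that exchange 47.4% and 49.1% of all genes were called at 1 h and 12 h.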
